A study of Homo sapiens with 3 samples.

Results

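The genes described here are 8 transcription factors of the noradrenergic core of neuroblastoma: PHOX2A, HAND1, HAND2, GATA2, GATA3, ISL1, TBX2 and TFAP2B. They were found by name in the GENCODE 29 annotation, and all 8 had a row among the 60660 genes of the deposited table. The study sequenced mRNA of SH-SY5Y, an established human neuroblastoma cell line grown as an adherent culture with fetal bovine serum. There was 1 group of 3 libraries (replicates 1, 2 and 3), each from a separate flask of the same line, with no treatment and no other cell line to compare it with. Differences between libraries therefore measure the spread between flasks of 1 line, and the comparisons below are between genes.

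During development, bone morphogenetic proteins from the dorsal aorta induce migrating neural crest cells to become sympathetic neurons and chromaffin cells. A set of transcription factors carries out that step, and its members act on each other's genes as well as on the genes of noradrenaline synthesis. Neuroblastoma arises in this lineage, and tumour cells of the noradrenergic type keep these factors active, with many of them bound together at large enhancers that include their own. A second, mesenchymal type of neuroblastoma cell relies on other factors.

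Values are FPKM, a measure of abundance that divides the fragments of a gene by its transcript length and by the size of the library. FPKM divides by length, so levels of different genes can be set side by side within a library. Biases of a gene other than its length were not measured. Errors are SDs over the libraries (n = 3). A gene was called above or below a level of 1, 10 or 100 FPKM by limma's moderated test on log2(FPKM + 0.1), two-sided, with Benjamini-Hochberg adjustment over all 31736 genes tested. From the steps of low values, the libraries held an estimated 21650000, 28450000 and 43850000 reads in replicates 1, 2 and 3. At that depth 3 reads on 1 kb of transcript are worth 0.139, 0.105 and 0.0684 FPKM, a floor for counting error only.

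The label of the cells was checked against marker genes. The noradrenergic neuroblastoma markers STMN2 (2405 ± 71.9 FPKM), CHGA (376 ± 14.0) and DBH (323 ± 10.3) were called above 1 FPKM, as was CHGB, and TH (1.12 ± 0.0686) was called neither above nor below. Of 9 Schwann cell genes PMP22 was called above, with summed levels of 17.2 to 20.8 FPKM over the libraries, and FOXD3 was listed at 0. Of 13 blood and T cell genes CD8A was called above (sums 2.85 to 3.51 FPKM), and CD3E and HBG1 were among those listed at 0. Of 10 heart genes TNNI3 and MEF2C were called above (sums 19.8 to 22.4 FPKM), and MYH6 was listed at 0. Of 12 fibroblast and endothelial genes 4 were called above (sums 51.1 to 59.1 FPKM), led by PDGFRB at 29.8 ± 1.91, and CDH5 was listed at 0. Over all genes tested 45.5% were called above 1 FPKM, and genes listed at 0 were not tested. The genes tested include noncoding ones, and their median of 1.08 FPKM lay below the 9.11 FPKM of protein-coding genes above 0. Here and below, this share is therefore a low bar for lists of protein-coding genes. The share over protein-coding genes alone was not computed. In bulk RNA, fewer cells of a type and less RNA per cell cannot be told apart, and the part of such cells in the values below was not tested.

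All 8 factors were called above 1 FPKM, where 45.5% of all genes tested were, and all 8 above 10 FPKM, where 25.1% were. At 100 FPKM 5 factors were called above, against 3.08% of all genes tested, and HAND1 and TBX2 were called below, as were 94.6% of all genes. The median over the factors was 209.9 FPKM, beside 9.11 FPKM over protein-coding genes with a value above 0 and 1.08 over all genes tested. Their means spanned a 17.3-fold range and fell into steps. HAND2, PHOX2A, GATA2 and GATA3 lay between 286 and 454 FPKM, TFAP2B and ISL1 at 134 and 103, and HAND1 and TBX2 at 26.9 and 26.3 FPKM. The first 4 ranked 191, 225, 259 and 301 among 16739 protein-coding genes. HAND1 ranked 4384 and TBX2 4480, so that 26.2% and 26.8% of protein-coding genes were higher.

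**Figure D1:**
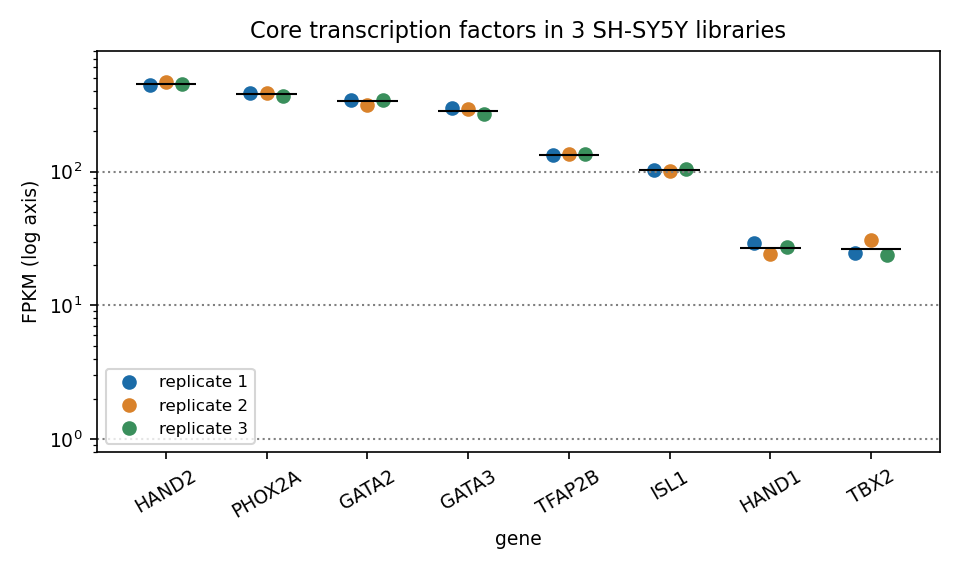
FPKM on a log axis (y) of the 8 factors (x), with 1 point per library, a black line at the mean over 3 libraries and dotted lines at 1, 10 and 100 FPKM. HAND2 to GATA3 lie between 268 and 464 FPKM in every library, and the points of HAND1 and TBX2 overlap between 23.8 and 30.6.

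PHOX2A encodes a paired-type homeodomain protein that binds the promoter of the dopamine beta-hydroxylase gene and is required for noradrenergic neurons such as those of the locus coeruleus. It lies on chromosome 11, 72239077 to 72245664, minus strand (GRCh38), with 1784 exonic bases. Its values were 387, 388 and 369 FPKM in replicates 1, 2 and 3, a mean of 381 ± 10.4. Replicate 3 was lowest, and the CV was 2.73%. The log2 distance over 100 FPKM was 1.93 (SE 0.07, limma adjusted p = 7.75e-05). PHOX2A overlaps INPPL1 on the other strand by 29 exonic bases at its last exon, 1.63% of its exonic length, and INPPL1 stood at 67.4 ± 5.91 FPKM. DBH, the gene of dopamine beta-hydroxylase, stood at 334, 314 and 320 FPKM, below PHOX2A in every library.

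HAND2 and HAND1 are a pair of related basic helix-loop-helix proteins that bind E-boxes as dimers with E proteins. HAND2 maintains noradrenergic identity in sympathetic neurons, and both are also known from heart development. HAND2 (chromosome 4, 173524969 to 173530229, minus strand) was the highest factor, with 447, 464 and 452 FPKM in replicates 1, 2 and 3, a mean of 454 ± 9.18. HAND1 (chromosome 5, 154474972 to 154478264, minus strand) gave 29.2, 24.1 and 27.5 FPKM, a mean of 26.9 ± 2.63. The groups of values did not overlap: HAND2 over HAND1 was 15.3, 19.3 and 16.4 in the 3 libraries. Replicate 2 held both the highest HAND2 and the lowest HAND1 value in FPKM, but in TPM it held the lowest value of both.

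The promoter windows of this pair, chosen after their motif matches were seen, are shown because these related factors lay far apart in level. They are the bases before the RefSeq start (GRCh38.p14), 5′ to 3′ on the gene's strand. Bases in GENCODE exons of protein-coding genes were left out, and exons of noncoding genes such as HAND2-AS1 were not checked. HAND2 is chr4:173530230-173530479, minus strand. HAND1 is the upstream part of chr5:154478228-154478477, minus strand. Capitals mark motif matches, each searched on both strands. GATA factors were searched by AGATAA or by the related letters TGATAA. The homeodomain core was searched as TAATTA, which other motifs may overlap. E-boxes were searched in a form common to many such proteins, CAGCTG, and in the form preferred by some neural ones, CATCTG. The T-box motif was taken to be GGTGTGA, and the site of AP-2 proteins was taken to be GCCNNNGGC.
HAND2: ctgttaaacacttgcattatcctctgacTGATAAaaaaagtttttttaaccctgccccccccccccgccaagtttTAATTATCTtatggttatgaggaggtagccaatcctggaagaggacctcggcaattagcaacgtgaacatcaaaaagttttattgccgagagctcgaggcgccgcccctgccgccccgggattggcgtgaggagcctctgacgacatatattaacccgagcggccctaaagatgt
HAND1: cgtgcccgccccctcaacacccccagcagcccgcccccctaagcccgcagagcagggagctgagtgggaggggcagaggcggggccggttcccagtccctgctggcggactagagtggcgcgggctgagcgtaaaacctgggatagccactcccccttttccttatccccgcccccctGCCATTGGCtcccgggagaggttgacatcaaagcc

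HAND2 held TGATAA with its first base 222 before the start, and AGATAA (read on the other strand) at 172, whose letters overlap a TAATTA at 175. Over 34788 distinct windows of the same 250 bases in the RefSeq table, 6.68% held TGATAA, 9.21% AGATAA and 4.37% TAATTA. HAND1 held no GATA motif and no TAATTA, and 1 AP-2 motif, 72 bases before its start, which 19.8% of all windows hold. The HAND2 window has a GC content of 49.6% with 13 CG dinucleotides, and the whole 250-base HAND1 window 67.2% with 16, beside medians of 58.0% and 11 over all windows. A match of letters is a description and not a bound site, and no binding was measured here. The HAND2 window lies inside the annotated span of HAND2-AS1, which runs the other way.

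HAND2-AS1 (chromosome 4, 173527270 to 173659696) stood at 431, 433 and 416 FPKM, nearly as high as HAND2, with a ratio of 0.966, 0.934 and 0.922 in replicates 1, 2 and 3. The genes share 867 exonic bases, 24.1% of HAND2's exonic length. The libraries were made with a stranded kit, but whether the counting used strand is not stated in the labels. If it did not, reads from the shared bases cannot be told apart, so both levels are uncertain. The same holds for the rank of HAND2, its first place among the factors and its distance from HAND1.

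GATA2 and GATA3 encode zinc finger proteins that bind the same core motif and act in sympathetic neuron development as well as in blood. GATA2 (chromosome 3, 128479427 to 128493185, minus strand) gave 345, 316 and 343 FPKM, a mean of 335 ± 16.1. GATA3 (chromosome 10, 8045378 to 8075203, plus strand) gave 299, 291 and 268 FPKM, a mean of 286 ± 16.1. GATA2 was higher than GATA3 in 3 of 3 libraries, by a log2 difference of 0.20, 0.12 and 0.36. The value ranges did not overlap, but the closest values were GATA2 in replicate 2 and GATA3 in replicate 1.

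Each of the GATA pair has a noncoding partner on the other strand at a level far below its own. GATA2-AS1 stood at 4.81 ± 0.524 FPKM, a ratio to GATA2 of 0.0144 ± 0.0016. GATA3-AS1 stood at 11.4 ± 1.02 FPKM, a ratio to GATA3 of 0.0399 ± 0.0033. Neither shares an exonic base with its partner in GENCODE 29. AL390294.1, a noncoding gene on the same strand inside the GATA3 span, stood at 10.6 ± 1.87 FPKM and also shares no exonic base with it. Within the family of 6, GATA2 made up 53.0% ± 2.0 of the summed FPKM and GATA3 45.3% ± 2.1. GATA4, a factor of heart and gut, was the third member called above 1 FPKM, at 11.2 ± 0.507 FPKM, and the blood factor GATA1 was listed at 0.

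TFAP2B, an AP-2 family protein that binds GC-rich sites and is needed in developing sympathetic neurons, had the smallest spread of the 8 factors in FPKM. It lies on chromosome 6, 50818723 to 50847613, plus strand, and overlaps no other annotated gene. Its values were 133, 134 and 134 FPKM in replicates 1, 2 and 3, a mean of 134 ± 0.88 and a CV of 0.658%. Of 684 protein-coding genes within 0.5 log2 of the same mean, 1.02% had a smaller SD. In TPM the CV was 2.90%, and those of HAND2 (1.55%) and PHOX2A (2.36%) were smaller. It was called above 100 FPKM (log2 0.42, SE 0.06, limma adjusted p = 0.006). Leaving out replicate 3 ended that call, with the log2 distance still 0.42 (limma adjusted p = 0.0541). So did rescaling to TPM, where the log2 distance turned to -0.07 (limma adjusted p = 0.383).

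No other AP-2 gene came near TFAP2B, which made up 99.5% ± 0.11 of the family's summed FPKM. TFAP2E (0.294 ± 0.0609 FPKM), TFAP2D (0.249 ± 0.0554) and TFAP2A (0.159 ± 0.0461) were called below 1 FPKM, where 43.7% of all genes tested were, and TFAP2C was listed at 0. TFAP2D is also the nearest protein-coding gene to TFAP2B, 45735 bases away.

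ISL1 encodes a LIM-homeodomain protein that acts in sympathetic neurons, sensory neurons, motor neurons and the heart. It lies on chromosome 5, 51383391 to 51394738, plus strand, and overlaps no other annotated gene. Its values were 102, 100.4 and 105 FPKM, a mean of 103 ± 2.50, with replicate 3 highest. It was called neither above nor below 100 FPKM (log2 0.04, SE 0.07, limma adjusted p = 0.614). Rescaled to TPM, which lowers every gene of a library alike, it was called below (log2 -0.45, limma adjusted p = 0.00655).

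The ISL1 promoter window is shown because, among the windows of the other factors, it alone held a GATA motif, a choice made after the matches were seen. It is the part of chr5:51383198-51383447, plus strand (GRCh38.p14), that lies before the first GENCODE exon of a protein-coding gene, with capitals as above.
ISL1: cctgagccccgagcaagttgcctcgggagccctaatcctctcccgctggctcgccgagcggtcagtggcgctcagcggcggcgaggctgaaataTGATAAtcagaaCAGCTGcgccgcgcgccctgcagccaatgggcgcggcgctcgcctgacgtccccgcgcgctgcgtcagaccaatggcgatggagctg

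The capitals are TGATAA, 156 bases before the start, and the E-box CAGCTG at 144, which 14.0% of all windows held. An AGATAA at 31 lies in the exonic bases left out. RefSeq windows were found for 7 of the 8 factors, and TBX2 had none in the table. Of the windows nearest the annotated start of each gene, those of GATA2 and GATA3 held 1 AP-2 motif each, and those of PHOX2A and TFAP2B held none of the 7 motifs. The PHOX2A start in RefSeq lies 1488 bases inside the GENCODE gene. That says only that these letters are not in those 250 bases.

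Among 12 LIM-homeodomain genes ISL1 made up 94.2% ± 0.43 of the summed FPKM. Its closest relative ISL2 stood at 4.47 ± 0.0123 FPKM and was called above 1 FPKM, LHX6 (1.38 ± 0.313) was called neither, and LMX1A was listed at 0. The motor neuron genes that ISL1 acts beside were low: LHX3 stood at 0.0143 ± 0.0248 FPKM and MNX1 at 0.00533 ± 0.00924, both called below. Of 8 motor neuron genes 7 were tested. Among those, 5 were called below 1 FPKM, beside 43.7% of all genes tested, and 2 above, beside 45.5%. The 2 were SLC18A3 (11.1 ± 0.715 FPKM), the vesicular acetylcholine transporter, and ISL2.

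TBX2 encodes a T-box repressor that represses cell cycle inhibitor genes and was identified as part of the neuroblastoma core circuit on the long arm of chromosome 17, a region often gained in these tumours. It lies at 61399896 to 61409466, plus strand. Its values were 24.5, 30.6 and 23.8 FPKM in replicates 1, 2 and 3, a mean of 26.3 ± 3.75. Replicate 2 was set apart from the other two, and the CV of 14.3% was the largest of the 8 factors in FPKM. In TPM the CV of HAND1, 12.4%, was larger than that of TBX2. Of 2505 protein-coding genes within 0.5 log2 of its mean, 88.9% had a smaller SD. TBX2 was called below 100 FPKM (log2 -1.93, SE 0.11, limma adjusted p = 0.000296).

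TBX2 was not the highest T-box gene. TBX3, a close relative that also represses cell cycle inhibitors, stood at 78.9, 84.1 and 78.0 FPKM, 3.22, 2.75 and 3.27 times TBX2. TBX3 made up 63.5% ± 1.5 of the summed FPKM of 17 T-box genes and TBX2 20.7% ± 1.6. MGA, a partner of MAX, stood at 12.4 ± 0.657 FPKM. TBX20 (2.34 ± 0.286), TBX6 (1.74 ± 0.371) and TBX22 (1.33 ± 0.144) were also called above 1 FPKM. TBX19 (1.13 ± 0.306) and TBX4 (0.922 ± 0.341) were called neither, and EOMES was listed at 0.

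TBX2-AS1 spans the whole of TBX2 on the other strand (61393456 to 61411555) but shares no exonic base with it. It stood at 30.4, 37.6 and 28.2 FPKM, above TBX2 in every library and highest in the same replicate 2. The ratio of TBX2-AS1 to TBX2 was 1.24, 1.23 and 1.19, so the pair kept nearly the same ratio while both levels moved between libraries. Another gene on that strand, AC005746.2 (6.45 ± 0.726 FPKM), shares 28 exonic bases with TBX2. Intronic reads of one strand can still be counted for the other where strand is not used, and its part in the shared movement was not tested.

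**Figure D2:**
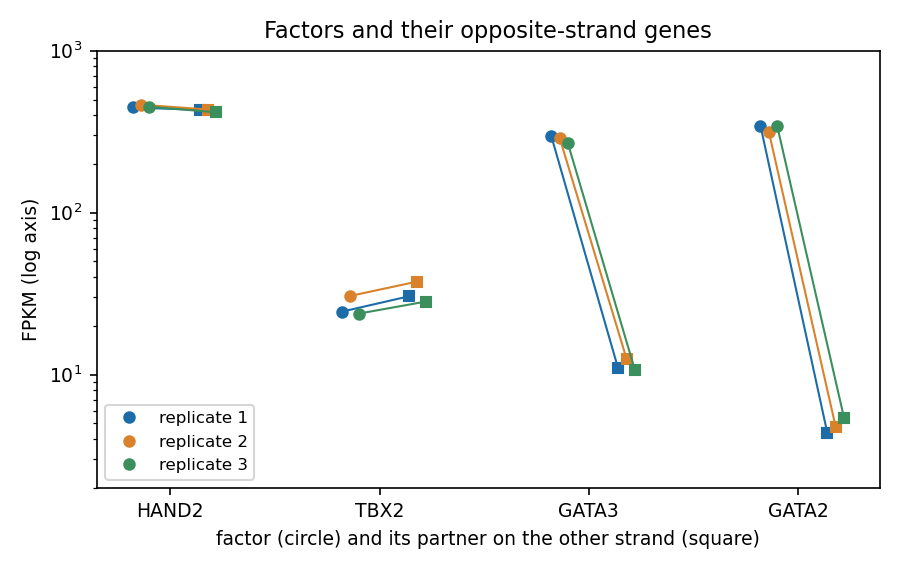
FPKM on a log axis (y) of 4 factors (circles) and their noncoding partners on the other strand (squares), with a line joining the values of each library. HAND2-AS1 lies at 416 to 433 FPKM beside HAND2, TBX2-AS1 lies above TBX2 in all 3 libraries, and GATA3-AS1 and GATA2-AS1 lie far below their partners.

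**Figure D3:**
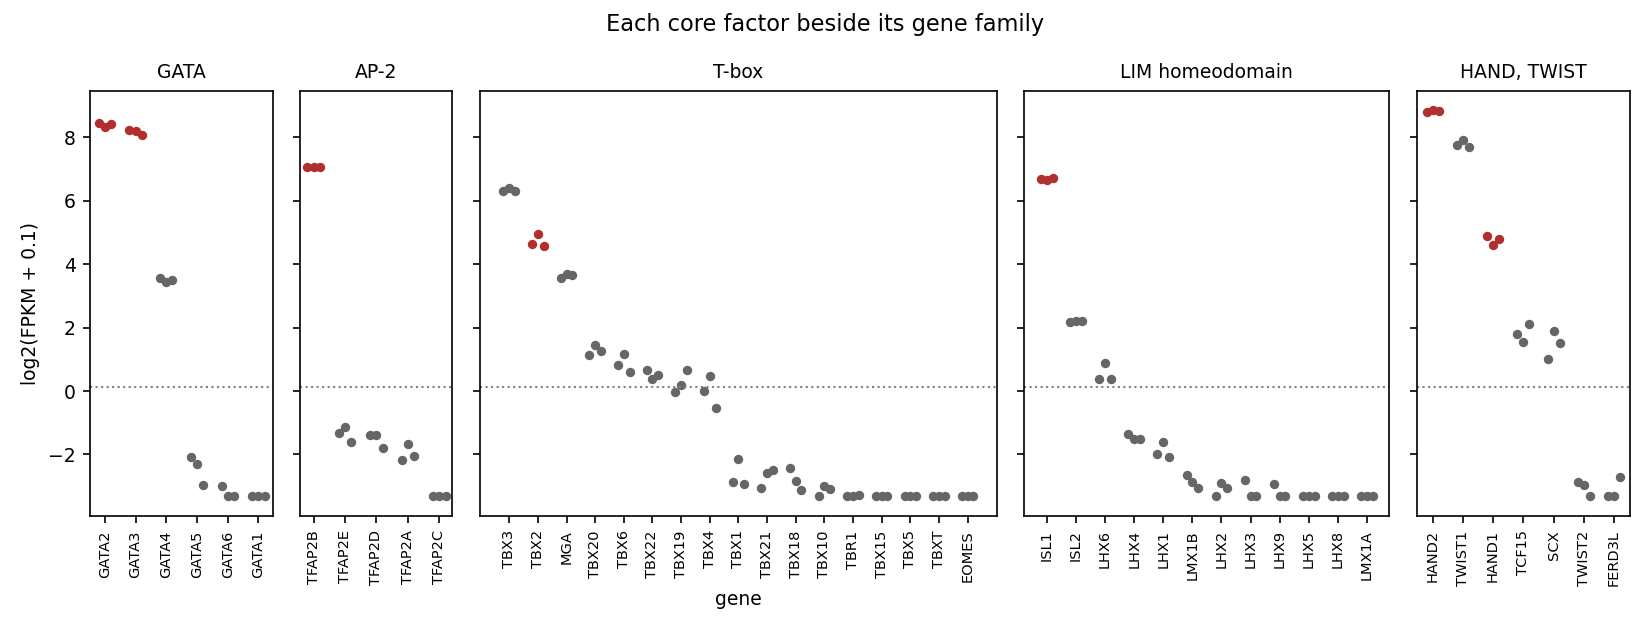
log2(FPKM + 0.1) (y) of every gene of 5 transcription factor families (x), 1 point per library, with the 8 factors but PHOX2A in red, relatives in grey and a dotted line at 1 FPKM. TFAP2B and ISL1 stand alone in their families, GATA2 and GATA3 stand together, and TBX3 and TWIST1 lie above TBX2 and HAND1.

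The order of the factors was HAND2, PHOX2A, GATA2, GATA3, TFAP2B, ISL1, HAND1 and TBX2. All 28 pairs were compared within libraries, and 27 had the same sign in every library and no overlap of their values. With 3 libraries an exact sign-flip test (two-sided) cannot give a p below 0.25. Each of the 27 pairs had exact p = 0.25 (0.259 after Benjamini-Hochberg adjustment over 28), so no pair passed the threshold. Among neighbours in the order, HAND2 exceeded PHOX2A by a log2 difference of 0.25 ± 0.04, and PHOX2A exceeded GATA2 by 0.19 ± 0.10. The lead of HAND2 is uncertain if the exonic bases it shares with HAND2-AS1 were counted without strand. GATA2 exceeded GATA3 by 0.23 ± 0.12, GATA3 exceeded TFAP2B by 1.09 ± 0.09, and TFAP2B exceeded ISL1 by 0.38 ± 0.03. ISL1 exceeded HAND1 by 1.93 ± 0.13. Each of these differences was larger than its SD over the libraries. That SD does not hold any bias of a gene that is alike in every library, so the order of factors close in level is uncertain. HAND1 and TBX2 did not differ beyond their spread, with 0.26, -0.35 and 0.21 in replicates 1, 2 and 3 (mean 0.04 ± 0.33, exact p = 1). Their difference was -0.07 without replicate 1 and -0.05 without replicate 3.

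The spread between libraries was set beside counting error. In the library with the fewest estimated reads for the gene, counting error for 1 kb of transcript came to 1.02% of the level for HAND2, 1.86% for TFAP2B, 3.97% for HAND1 and 4.34% for TBX2. The CVs over libraries were 2.02% for HAND2, 9.77% for HAND1 and 14.3% for TBX2, all above it. TFAP2B at 0.658% lay below it in FPKM but, at 2.90%, above it in TPM. For a transcript longer than 1 kb the counting error is smaller, and by a different factor for each gene. Exonic bases were 6149 for TFAP2B, 6029 for TBX2 and 1738 for HAND1. GATA2 (4.80%) and GATA3 (5.64%) also exceeded their counting errors of 1.16% and 1.24%. In TPM the CV of GATA2 was 7.75%, above the 5.23% of GATA3, and that of ISL1 was 5.30% in place of 2.44%. HAND1 was lowest and TBX2 highest in replicate 2 in FPKM, in TPM and after a median-ratio rescaling. For HAND2 the highest library moved from replicate 2 to replicate 3 in TPM, and replicate 2 became the lowest. For PHOX2A it moved from replicate 2 to replicate 1, for GATA2 from replicate 1 to replicate 3 and for TFAP2B from replicate 2 to replicate 3. The order of libraries of these factors depends on the scaling.

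**Figure D4:**
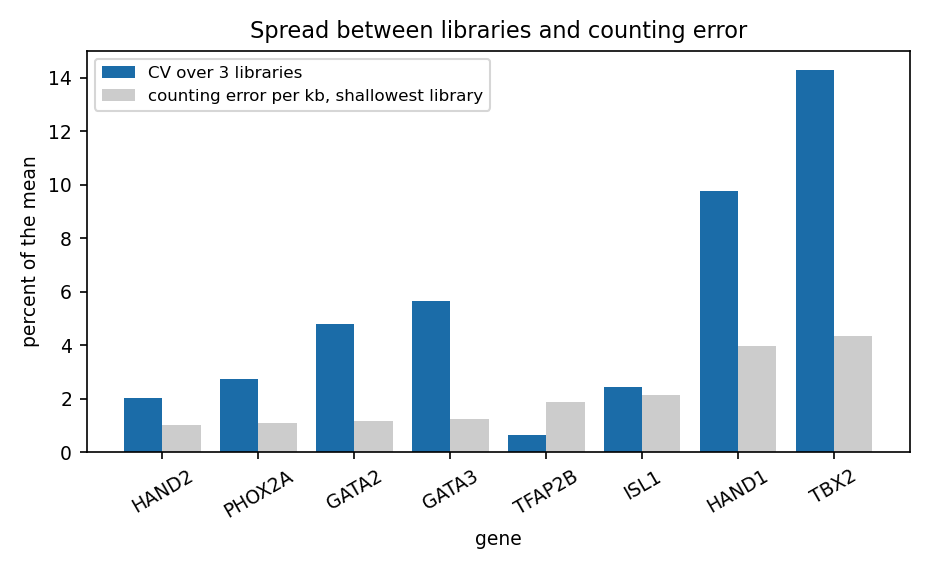
CV over 3 libraries (blue) and counting error of 1 kb of transcript in the library with the fewest estimated reads for the gene (grey), both in percent of the mean (y), for each factor (x). TBX2 and HAND1 have the largest CVs in FPKM, 14.3% and 9.77%, and TFAP2B alone lies below the counting error of 1 kb, which in TPM its CV of 2.90% exceeds.

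The nearest protein-coding genes on either side that do not overlap the factor are given as a description, since most genes lie below factors of these levels. HAND2 lay between SCRG1 (0.503 ± 0.0827 FPKM) and FBXO8 (36.1 ± 1.73), and PHOX2A between FOLR2, listed at 0, and CLPB (29.6 ± 1.07). INPPL1 (67.4 ± 5.91 FPKM), on the same side as FOLR2, is nearer to PHOX2A but was left out because it overlaps it. GATA2 lay between DNAJB8 (0.0423 ± 0.0406) and RPN1 (88.55 ± 1.24), and GATA3 between TAF3 (6.70 ± 0.192) and CELF2 (0.954 ± 0.116). ISL1 lay between PARP8 (23.2 ± 2.82) and ITGA1 (12.2 ± 0.949), and TBX2 between BCAS3 (14.7 ± 0.901) and TBX4. TFAP2B was flanked by TFAP2D and PKHD1 (0.184 ± 0.018). HAND1 lay below both of its neighbours, SAP30L (49.2 ± 3.72) and LARP1 (197 ± 25.5).

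Transcripts of the proteins that these factors work with were called as follows. Of 21 binding partners and cofactors 17 were called above 1 FPKM, beside 45.5% of all genes tested, and 3 were called below. Their median was 19.5 FPKM. The E protein genes TCF3 (168 ± 10.3 FPKM), TCF4 (157 ± 3.90) and TCF12 (91.05 ± 9.44), which supply the dimer partners of HAND proteins, all lay above HAND1 and below HAND2. LDB1, the adaptor that holds LIM-domain proteins such as ISL1 and LMO1 in complexes, stood at 47.7 ± 0.592 FPKM, and its stabilizing partner SSBP3 at 111 ± 5.56. LMO1, a neuroblastoma risk gene, stood at 39.6 ± 1.60 FPKM. Of the FOG cofactors of GATA proteins, ZFPM1 was called above 1 FPKM (7.47 ± 1.12) and ZFPM2 below (0.0467 ± 0.0368). The AP-2 inhibitors KCTD15 (38.5 ± 4.31) and KCTD1 (24.2 ± 1.11) were called above, and CITED2, an AP-2 coactivator, was called neither (0.849 ± 0.373). The blood partners of GATA2, TAL1 (0.01 ± 0.00872) and LMO2 (0.0407 ± 0.0364), were called below.

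Other transcription factors of the noradrenergic type lay lower than most of the 8. Their median was 38.4 FPKM, and 16 of 17 were called above 1 FPKM, beside 45.5% of all genes tested. MEIS2, a homeodomain cofactor, was an exception at 396, 375 and 383 FPKM, the level of PHOX2A. SOX4 stood at 90.95 ± 2.54 FPKM and SIX3 at 76.5 ± 2.68, and INSM1 was called below at 0.00733 ± 0.00666. Among 24 genes of noradrenergic neurons the median was 49.0 FPKM, and 21 of the 23 tested were called above 1 FPKM, against the same 45.5%. The vesicular transporter SLC18A2 was called below (0.186 ± 0.0344 FPKM), and the neuropeptide gene CARTPT was listed at 0. The noradrenaline transporter SLC6A2 stood at 28.6 ± 3.48 FPKM.

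The bone morphogenetic protein pathway, the inducer of these factors in the embryo, had receptors and SMADs but few ligands. Of 19 genes 4 were listed at 0 and 15 were tested. Among those 15, 13 were called above 1 FPKM, beside 45.5% of all genes tested, and 2 below, beside 43.7%. The median of all 19 was 9.99 FPKM. SMAD4 (65.5 ± 1.24 FPKM), SMAD5 (32.3 ± 1.04) and the receptor BMPR1A (19.3 ± 2.28) were called above, and the target genes ID2 (91.3 ± 6.37) and ID3 (44.8 ± 1.59) were among the 3 highest. Of the ligands BMP7 (2.17 ± 0.661) was called above and BMP2 (0.479 ± 0.0416) below, and BMP4, BMP5 and BMP6 were listed at 0, as was the antagonist NOG.

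Factors of the mesenchymal type were called both above and below 1 FPKM. Of 30 genes 4 were listed at 0 and 26 were tested. Among those 26, 15 were called above 1 FPKM, beside 45.5% of all genes tested, and 11 below, beside 43.7%. Both shares include noncoding genes, so they do not show whether this list lies above or below protein-coding genes at large. The median of all 30 was 0.911 FPKM, below each of the 8 factors. TWIST1 was the highest at 216, 239 and 204 FPKM, between GATA3 and TFAP2B in every library. It also belongs to the HAND and TWIST family, where HAND2 made up 64.2% ± 1.1 of the summed FPKM, TWIST1 31.0% ± 1.5 and HAND1 3.82% ± 0.48. TCF15 (3.48 ± 0.72 FPKM) and SCX (2.76 ± 0.862) of that family were called above 1 FPKM, and TWIST2 and FERD3L below. AEBP1 (41.6 ± 0.978) and ZEB1 (40.7 ± 1.35) followed TWIST1 among mesenchymal-type genes, both above HAND1 and TBX2, and PRRX1, MEOX1 and MEOX2 were among those listed at 0.

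**Figure D5:**
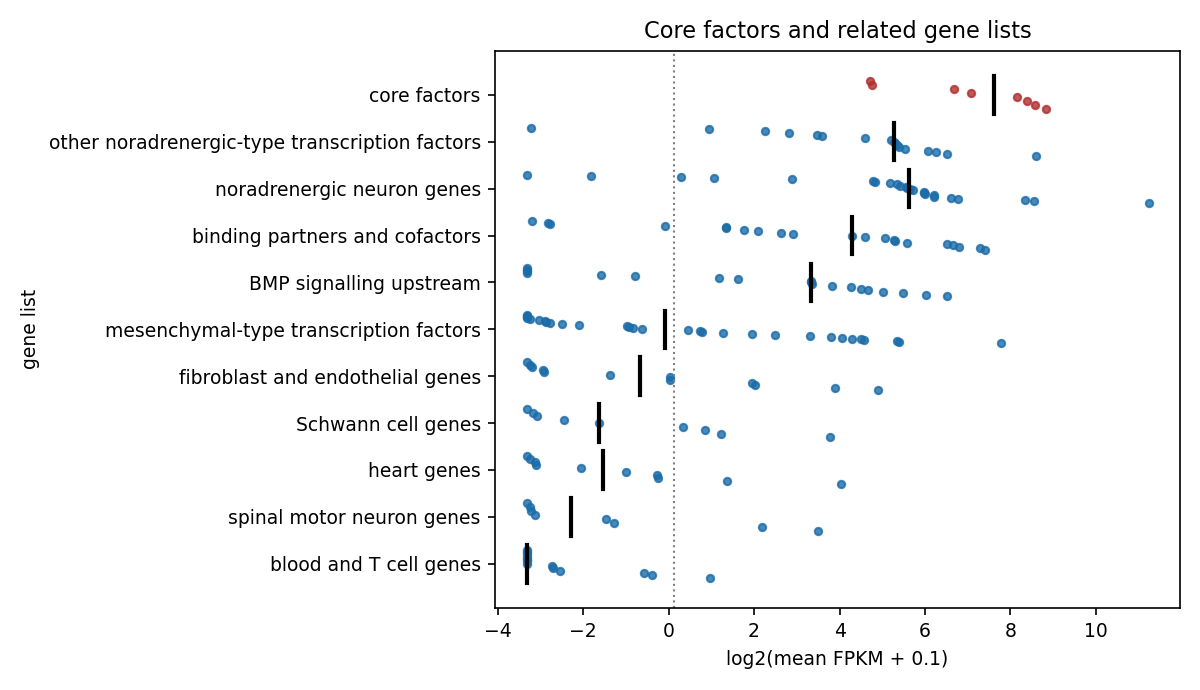
log2(mean FPKM + 0.1) (x) of each gene in the core factors (red) and 10 related lists (blue, y), with a black bar at the median of each list and a dotted line at 1 FPKM. The core factors span 26.3 to 454 FPKM, and the lists of other cell types have their medians left of the line.

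Genes with the most similar values over the 3 libraries were found among 16738 other protein-coding genes, by Euclidean distance of log2(FPKM + 0.1). The most similar gene was BSG for HAND2 (distance 0.0172), RPS26 for PHOX2A (0.0227) and FBL for GATA2 (0.0832). It was RALY for TFAP2B (0.0416), LGALS3BP for ISL1 (0.019), USP1 for HAND1 (0.0221) and TMEM130 for TBX2 (0.019). TMEM130 gave 24.7, 30.5 and 24.1 FPKM, with the same high replicate 2 as TBX2. With 3 libraries of 1 group, such likeness is one of level and describes these libraries only.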

How the data were processed

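Total RNA (500 ng) of SH-SY5Y cells at about 60% confluency was made into stranded mRNA libraries per the labels' protocols, and the series' design text gives single reads of 50 bases. The authors deposited 1 table of FPKM values per gene and library. The submitters' processing notes name TopHat2 2.1.1, Cufflinks 2.2.1, FastQC 0.10.1, bcl2fastq and hg38. Which tool did what, the annotation and the use of strand: not given in the sources used here.

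Of 60660 identifiers 57046 matched GENCODE 29 (GRCh38), and the others kept their identifiers. Of 154 shared names the identifier with the highest mean was kept. In 28 genes a value was missing. The 31736 genes above 0 in 1 library or more were tested with limma 3.58.1 (R 4.3.3, intercept only) on log2(FPKM + 0.1) against 1, 10 and 100 FPKM. The pseudocount shrinks differences between low genes. The test against 100 FPKM was also run on simulated data, with an outcome not given here, and those against 1 and 10 FPKM were not.

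Reads were estimated from genes with 1 transcript of at least 600 exonic bases, less an assumed 200. At the estimated depths 97.2%, 97.3% and 97.0% of low values lay within 0.1 of a whole read, where chance at a depth fixed beforehand gives 20%. The depths were chosen by this same share, so it is not a separate check of them. Promoters came from RefSeq. Other steps used Python 3.11.15 with scipy 1.17.1.

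The rule for names was: the 8 factors, overlapping and flanking genes, the 3 highest and the lowest member of each list, family members called above 1 FPKM, list members called neither where 5 or fewer, and the most similar gene. The gene most similar to GATA3 is not reported here. Other genes named for their role were chosen after their values were seen. The factors and lists were chosen with earlier results of these data known. Alternatives were other pseudocounts (1 and 0.01), filters and scalings, and each library left out.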

Additional observations from a re-analysis of the deposited data

How the results depend on the processing

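The counts of factors called above 1 and 10 FPKM were 8 under each of the 9 alternatives run, and 27 pairs had 1 sign in every library with pseudocounts of 1 and 0.01 and without replicate 1 or 3, and 28 without replicate 2. At 100 FPKM the count was 5 in 7 alternatives and 4 in TPM and without replicate 3. TFAP2B over 100 FPKM turned to -0.0707 in TPM and ISL1 to -0.454, and a TPM rescaling shifts every gene of a library by -0.47, -0.54 and -0.46 on the log2 scale in replicates 1, 2 and 3. The difference between HAND1 and TBX2 ranged from -0.0701 to 0.231 as each library was left out, below 0 without replicate 1 or 3, and its cause was not tested. In TPM the CVs of TFAP2B, GATA2 and ISL1 were 2.90%, 7.75% and 5.30%. Ranked among protein-coding genes that averaged 1 FPKM or more, HAND1 and TBX2 lay below 35.9% and 36.7%. The number of all genes called below 1 FPKM was 40037 with no filter and 0 when an average of 1 FPKM was required, against 13853, since those filters decide which low genes are tested. Counting errors for 1 kb of transcript were 3.97% for HAND1 and 4.34% for TBX2, below their CVs. No paired analysis was possible because the series has 1 group.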
